A study of Mus musculus with 24 samples.

Results

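The comparison set glucagon receptor knockout liver against wildtype liver 2.5 days after birth. It held the 8 of the 24 libraries of the study whose titles name this age, 4 from mice labelled GCGR knockout (KO) and 4 from mice labelled wildtype (wt). All 8 came from liver of postnatal day 2.5 (P2.5), and no treatment, strain, allele or sex is given in the labels, nor how many animals went into a library. The study also holds KO and wt livers of embryonic stage E18.5 and postnatal stage P7.5, 4 libraries each, which entered the fit and are used below only to show where P2.5 differed from them. Each library was read in Cy5 on a 2-colour Agilent array, against universal mouse reference RNA in Cy3. Levels are therefore log2 ratios, liver over reference, and differences are KO minus wt on that scale.

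Glucagon is released by the pancreas when glucose is low. It binds a receptor on hepatocytes that acts through the stimulatory G protein Gs, adenylyl cyclase, cAMP and protein kinase A, and it turns on glycogen breakdown, gluconeogenesis, amino acid use with urea formation, and fatty acid oxidation. At birth the supply of glucose through the placenta stops, glucagon rises and insulin falls, and the liver starts gluconeogenesis and ketogenesis while the pup lives on fat-rich milk. The liver of a newborn mouse is also a blood-forming organ that is losing this role, so that RNA of blood cells, endothelial cells and bile duct cells is measured with that of hepatocytes.

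The Cy5 signal stood well clear of background for 22668 to 31362 of 39429 probes per library, fewest in KO replicate 3, which alone of the KO libraries lay on a slide scanned on another day. No gene's spot was marked as saturated at P2.5. Across genes, wt libraries correlated with each other at 0.942 to 0.983, KO libraries at 0.95 to 0.987, and wt with KO at 0.925 to 0.964. The wt and KO arrays lay on separate slides, and the effects of genotype and of slide cannot be told apart at P2.5. The Cy3 signal, which should read the same reference RNA on every array, differed between KO and wt arrays for 6894 of 17266 genes (39.9%), and for named genes that passed but lost their call in Cy5 alone the difference there is given. The Y-linked genes Ddx3y and Eif2s3y read -3.08 and -3.03 in wt replicate 1 against 0.85 to 1.57 and 2.60 to 3.06 in the other 7 libraries, and the part of this library's sex in the results was not tested. The SEs and p-values rest on a spread pooled over the 6 groups of all 24 arrays, not on the 8 P2.5 libraries alone. It is a spread between libraries, since the labels do not say that they came from separate animals, and the number of arrays limits the precision. In RNA of whole liver, fewer cells of a type and less RNA per cell cannot be told apart.

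Gcgr, the gene for the glucagon receptor, had log2 ratios of 5.51, 5.75, 6.26 and 5.74 in wt and 0.17, 0.38, 0.37 and 0.19 in KO. The groups lay far apart, and the KO libraries kept 2.2% of the wt level on this scale (-5.54 ± 0.66 (SE, adjusted p = 1.04e-05), n = 4 against 4). The same probe differed by -5.16 at E18.5 and -4.29 at P7.5, and the P2.5 difference did not pass a test against the mean of those ages (adjusted p = 0.483). P7.5 KO replicate 2 is part of this fit and of the P7.5 difference. With that library left out, the P2.5 difference stayed at -5.54 and its adjusted p became 2.63e-16. This 1 library of another age thus widened the spread used for Gcgr, and the cause was not tested. Of the 50 protein-coding genes next to Gcgr on its chromosome, 25 on each side in the order of the RefSeq annotation of GRCm38.p6, 43 were tested. Among these 3 were higher and 6 lower in KO, or 20.9% in all, against 24.1% of all genes. The Wnt deacylase gene Notum fell by 0.63 ± 0.10 (SE, adjusted p = 0.000113), and Alyref, an mRNA export factor gene, rose by 0.81 ± 0.15 (SE, adjusted p = 0.000839). Ndufaf8, for an assembly factor of respiratory complex I, rose by 0.61 and Aspscr1, which tethers glucose transporters inside cells, fell by 0.32.

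Across all 17266 genes, 4166 passed the threshold (limma, Benjamini-Hochberg adjusted p under 0.05), 2038 higher in KO (11.8%) and 2128 lower (12.3%). Most differences were small, and 157 genes (0.909%) changed at least 2-fold, 52 higher and 105 lower. The 4 KO values lay above the 4 wt values in 1482 genes (8.61%) and below them in 1758 (10.2%), and 2693 genes (15.6%) both passed and had separate groups. Of the genes that passed, 2565 (14.9% of all genes) also passed in the same direction when Cy5 was read without the reference, 1302 higher (7.54%) and 1263 lower (7.31%), and 319 (1.85%) had the opposite sign there, 148 of the rises (0.857%) and 171 of the falls (0.99%). When the P2.5 arrays were fitted without the other ages, 1694 genes passed. These shares are the background for the counts of each gene group below. A count of 0 to 2 genes in a list moved by at most 2 with 1 library left out, except where given.

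Eosinophil granule genes led the rises. Ear6, an eosinophil ribonuclease gene, read 0.08, 0.20, 0.42 and 0.03 in wt and 2.35, 1.63, 2.08 and 2.94 in KO. Epx, for eosinophil peroxidase, read 0.17, 0.33, 0.10 and 0.28 in wt and 1.89, 1.57, 2.08 and 3.02 in KO. Prg3, a relative of major basic protein, read 0.66, 0.76, 0.40 and 0.51 in wt and 2.03, 1.95, 2.47 and 2.82 in KO. All 12 of these KO values were above 1.5 and all 12 wt values below 0.8. In KO, Ear6 was higher by 2.07 ± 0.33 (SE, adjusted p = 0.000186), Epx by 1.92 ± 0.33 (SE, adjusted p = 0.000345) and Prg3 by 1.74 ± 0.29 (SE, adjusted p = 0.000251). The log ratios of the Feature Extraction software gave rises of 2.42, 2.59 and 3.23. The Epx probe was well above background on 2 wt arrays and 4 KO arrays. Its wt level is near background, and the size of its rise is not well set.

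Other genes with large rises are known from other organs. Rpgrip1, which encodes a protein of the photoreceptor cilium, read 1.43, 1.60, 1.57 and 1.28 in wt and 3.04, 2.82, 2.94 and 2.72 in KO. Its rise of 1.41 ± 0.10 (SE, adjusted p = 2.93e-09) was 1.15 at E18.5 and 1.004 at P7.5, and it passed at each age. The urea transporter gene Slc14a2, best known from the kidney, read 2.76, 1.91, 2.14 and 1.97 in wt and 3.51, 3.34, 3.64 and 3.54 in KO, a rise of 1.31 ± 0.19 (SE, adjusted p = 6.43e-05) that was 1.31 at E18.5 and 1.15 at P7.5. Gpha2, a glycoprotein hormone subunit, read 0.58, -0.39, -0.26 and -0.74 in wt and 1.09, 1.68, 0.90 and 1.08 in KO. Mdfi, an inhibitor of the MyoD family, read 1.74, 1.31, 1.02 and 0.43 in wt and 2.43, 2.82, 2.47 and 2.03 in KO. In both genes the KO values lay above the wt values without overlap, and they rose by 1.39 and 1.31. Fabp4, the fatty acid binding protein of adipocytes, macrophages and capillary endothelium, read 4.23, 4.26, 4.44 and 3.88 in wt and 5.41, 5.07, 5.75 and 5.55 in KO, a rise of 1.24 ± 0.18 (SE, adjusted p = 7.59e-05). Vpreb3, a marker gene of the B lineage, read 3.66, 2.82, 2.66 and 2.84 in wt and 4.21, 4.06, 4.60 and 4.27 in KO, a rise of 1.29 ± 0.22 (SE, adjusted p = 0.000308). Fabp4 and Vpreb3 did not pass at E18.5 (adjusted p = 0.672 and 0.997) or at P7.5 (adjusted p = 0.426 and 0.697). The phosphodiesterase gene Gdpd2 rose by 1.42 and the histone gene H2bu2 by 1.26, as did the ephrin receptor gene Ephb6 by 1.32, whose call was lost without KO replicate 3 (adjusted p = 0.0554) and in Cy5 alone (1.06, adjusted p = 0.0721).

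**Figure D1:**
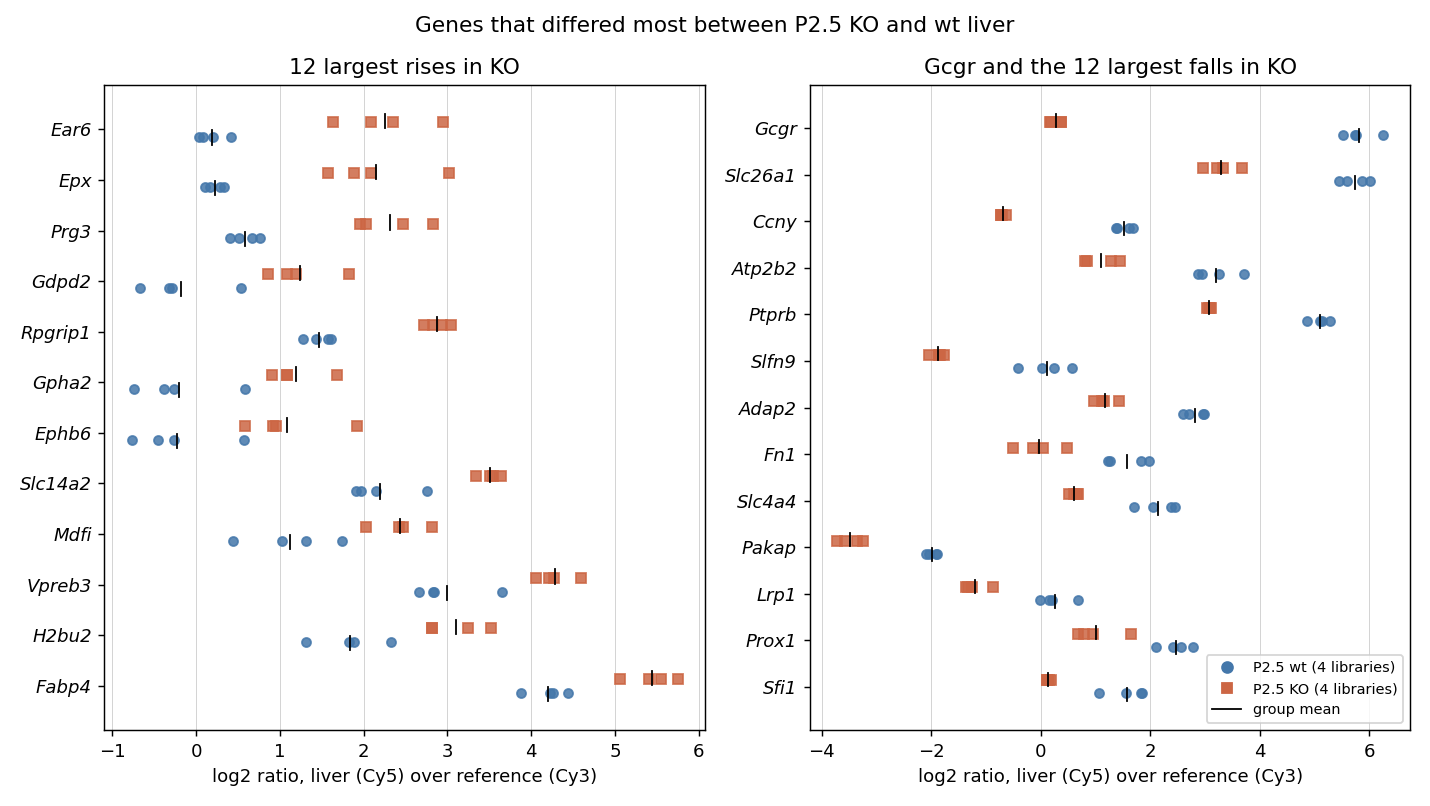
Log2 ratio of liver (Cy5) over reference (Cy3) for the 12 largest rises (left) and for Gcgr and the 12 largest falls (right), with 1 circle per wt library, 1 square per KO library and a black tick at each group mean. In each of these genes the 4 KO values lie wholly above or below the 4 wt values, and Gcgr stands apart with KO at 0.17 to 0.38 and wt at 5.51 to 6.26.

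Among the largest falls, the sulfate and oxalate transporter gene Slc26a1 read 6.02, 5.87, 5.45 and 5.60 in wt and 3.32, 2.96, 3.23 and 3.68 in KO. All KO libraries lay below all wt libraries. It fell by 2.44 ± 0.18 (SE, adjusted p = 7.71e-09) here, and the difference was -1.19 at E18.5 (adjusted p = 6.03e-05) and -0.04 at P7.5 (adjusted p = 0.869). The sodium bicarbonate cotransporter gene Slc4a4 read 1.70, 2.04, 2.39 and 2.46 in wt and 0.68, 0.60, 0.67 and 0.52 in KO, a fall of 1.53 ± 0.19 (SE, adjusted p = 1.08e-05). The plasma membrane calcium pump gene Atp2b2 read 2.87, 3.72, 3.26 and 2.95 in wt and 0.85, 1.28, 0.82 and 1.46 in KO, a fall of 2.10 ± 0.27 (SE, adjusted p = 1.77e-05) that was -0.65 in Feature Extraction's own log ratios.

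Ptprb, the receptor phosphatase of endothelial junctions, read 4.86, 5.09, 5.29 and 5.14 in wt and 3.07, 3.10, 3.05 and 3.12 in KO. Its KO values lay within 3.05 to 3.12, and it fell by 2.01 ± 0.26 (SE, adjusted p = 2.65e-05), with a second probe of the gene at -1.01. Fibronectin, Fn1, a secreted matrix and plasma protein, read 1.84, 1.23, 1.27 and 1.98 in wt and -0.14, 0.05, -0.51 and 0.48 in KO, a fall of 1.61 ± 0.32 (SE, adjusted p = 0.00107). Lrp1, the hepatocyte receptor for remnant lipoproteins and protease complexes, read -0.01, 0.15, 0.69 and 0.20 in wt and -1.36, -0.87, -1.33 and -1.26 in KO, a fall of 1.46 ± 0.16 (SE, adjusted p = 2.93e-06). Prox1, a transcription factor of hepatocytes and lymphatic endothelium, read 2.57, 2.78, 2.11 and 2.41 in wt and 0.79, 0.95, 0.68 and 1.65 in KO, a fall of 1.45 ± 0.23 (SE, adjusted p = 0.000142). In each of these 4 genes the groups were separate and the fall passed in Cy5 alone too, with signed differences there in the same order (-2.18, -0.99, -1.65 and -1.41).

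The cyclin gene Ccny fell by 2.22 ± 0.15 (SE, adjusted p = 1.82e-09) and the centrosomal gene Sfi1 by 1.44 ± 0.13 (SE, adjusted p = 2.55e-07), and both were also lower at E18.5 (-1.83 and -1.41) and P7.5 (-1.46 and -1.66). Adap2, for a GTPase-activating protein of ARF, fell by 1.64, Slfn9 of the Schlafen family by 1.99 and the kinase anchor gene Pakap by 1.48. The second probe of Slfn9 read -0.88, so that the size of that fall differs between probes. Of 1115 rises and 1403 falls with separate groups and enough signal, 507 and 672 failed the limit on the Cy3 difference, which was set at 1/3 of their own. The largest were the rises of Prg2, Grrp1 and Ppp3r1 and the falls of Ceacam2, C3 and Rtp3. Their Cy3 differences were 2.42, -0.79, 0.45, -1.56, 0.89 and 0.66, and their Cy5 differences 4.94, 0.78, 1.77, -4.37, -0.60 and -0.94. In Cy5 alone C3, the central complement gene, missed the threshold (adjusted p = 0.0587). The second probe of Ceacam2 read 0.01, and that gene's fall rests on 1 probe.

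The genes of the receptor's own pathway were compared next. Of 43 tested genes of glucagon receptor signalling 3 were higher and 10 lower, Gcgr included (23.3% lower, against 12.3% of all genes), with a median difference of -0.06 against -0.01 over all genes. Without KO replicate 3, 4 were lower, and 6 without wt replicate 1 or any other KO library, while in Cy5 alone 7 were higher and 12 lower. Gnas, for the Gs alpha subunit, fell by 0.83 ± 0.16 (SE, adjusted p = 0.000756), but its 3 probes read -0.83, -0.19 and 0.01. The adenylyl cyclase gene Adcy6 changed by -0.43 and lost its call without KO replicate 3 (adjusted p = 0.0515). Gnaq, the alpha subunit that couples to phospholipase C, fell by 0.33 ± 0.08 (SE, adjusted p = 0.00565). Ramp2, a partner of calcitonin family receptors, rose by 0.51 ± 0.10 (SE, adjusted p = 0.00125).

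Transcripts that cAMP induces in hepatocytes did not move together. Of 27 tested targets 4 were higher (14.8% against 11.8% of all genes) and 2 lower, with a median of 0.19, and 2 to 8 were higher when 1 library was left out, fewest without wt replicate 1 or 2 and most without wt replicate 3. Pck1, for the cytosolic PEP carboxykinase that commits carbon to gluconeogenesis, read 7.01, 7.45, 8.36 and 7.17 in wt and 7.31, 7.27, 6.73 and 6.80 in KO. G6pc, for the glucose-6-phosphatase that releases glucose, read 4.53, 5.20, 5.86 and 4.90 in wt and 4.95, 4.89, 4.91 and 4.62 in KO. Ppargc1a, for the coactivator PGC-1alpha, read 0.28, 0.71, 2.57 and 1.07 in wt and 1.99, 1.91, 1.44 and 0.71 in KO. In these 3 genes the groups overlapped and wt replicate 3 was the highest wt library. Pck1 differed by -0.47 ± 0.39 (SE, adjusted p = 0.393), G6pc by -0.28 ± 0.21 (SE, adjusted p = 0.345) and Ppargc1a by 0.36 ± 0.32 (SE, adjusted p = 0.438). Ppargc1a was -0.94 in Cy5 alone (adjusted p = 0.032).

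The promoters of some of these genes are shown because the cAMP response element, the site of CREB, is a sequence through which cAMP acts on them. The sequences are from RefSeq's GRCm38.p6, which held the 250 bases before the start for 25 of the 27 targets, and capitals mark CGTCA or TGACG, the core half-site searched on both strands. It was present in 15 of the 25 and in 19.8% of all 27025 genes with a promoter, and the full palindromic site, in which both half-sites overlap, in 1 of the 25 and in 1.77% of all. Of the targets with a promoter 5 passed at P2.5, 3 of them with the half-site, and 20 did not pass, 12 of them with it.
Pck1, chr2:173152956-173153015, plus strand, half-site beginning 90 bases before the start: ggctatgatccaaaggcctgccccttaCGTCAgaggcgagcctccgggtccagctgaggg
Ppargc1a, chr5:51567742-51567801, minus strand, half-site 49 bases before the start: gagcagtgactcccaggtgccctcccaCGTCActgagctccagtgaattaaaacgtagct
Nr4a1, chr15:101266779-101266838, plus strand, half-site 40 bases before the start: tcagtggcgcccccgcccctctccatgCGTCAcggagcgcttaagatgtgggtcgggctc
Klf15, chr6:90462471-90462530, plus strand, half-site 78 bases before the start: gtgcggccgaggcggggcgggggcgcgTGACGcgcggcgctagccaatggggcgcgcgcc
Of these 4 genes Pck1 and Ppargc1a did not pass. The nuclear receptor gene Nr4a1 rose by 0.35 ± 0.12 (SE, adjusted p = 0.0405), a call that was lost without any of 5 libraries (at most adjusted p = 0.136). Klf15, a factor of amino acid use in fasting, rose by 0.79 ± 0.26 (SE, adjusted p = 0.0301) with 1 missing value, and that call too was lost without any of 5 libraries (at most adjusted p = 0.186).

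Sik1, the salt-inducible kinase that cAMP induces and that restrains CREB coactivators, read 1.39, 1.88, 2.48 and 1.46 in wt and 2.90, 2.98, 2.89 and 2.05 in KO. It rose by 0.90 ± 0.20 (SE, adjusted p = 0.00339) with overlapping groups, and the difference was 0.97 at E18.5 (adjusted p = 0.00148). Irs2, an insulin receptor substrate induced in fasting, read 0.80, 0.91, 1.49 and 1.04 in wt and 0.02, 0.18, -0.17 and 0.01 in KO and fell by 1.05 ± 0.22 (SE, adjusted p = 0.00214). Igfbp1, a secreted IGF binding protein induced by glucagon and repressed by insulin, read 8.50, 8.89, 9.21 and 8.52 in wt and 7.90, 7.77, 7.42 and 8.05 in KO. It fell by 0.996 ± 0.17 (SE, adjusted p = 0.000376), but Cy5 alone gave 0.25 (adjusted p = 0.23) and the Cy3 signal of its spots was higher on KO arrays by 1.11. Among 29 genes of glucagon-regulated metabolism taken whatever their result, 3 rose and 7 fell in KO, and wt replicate 3 was the highest wt library in 17. This library was the highest wt library in 35.7% of all genes and in 66.7% of the cAMP targets.

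**Figure D2:**
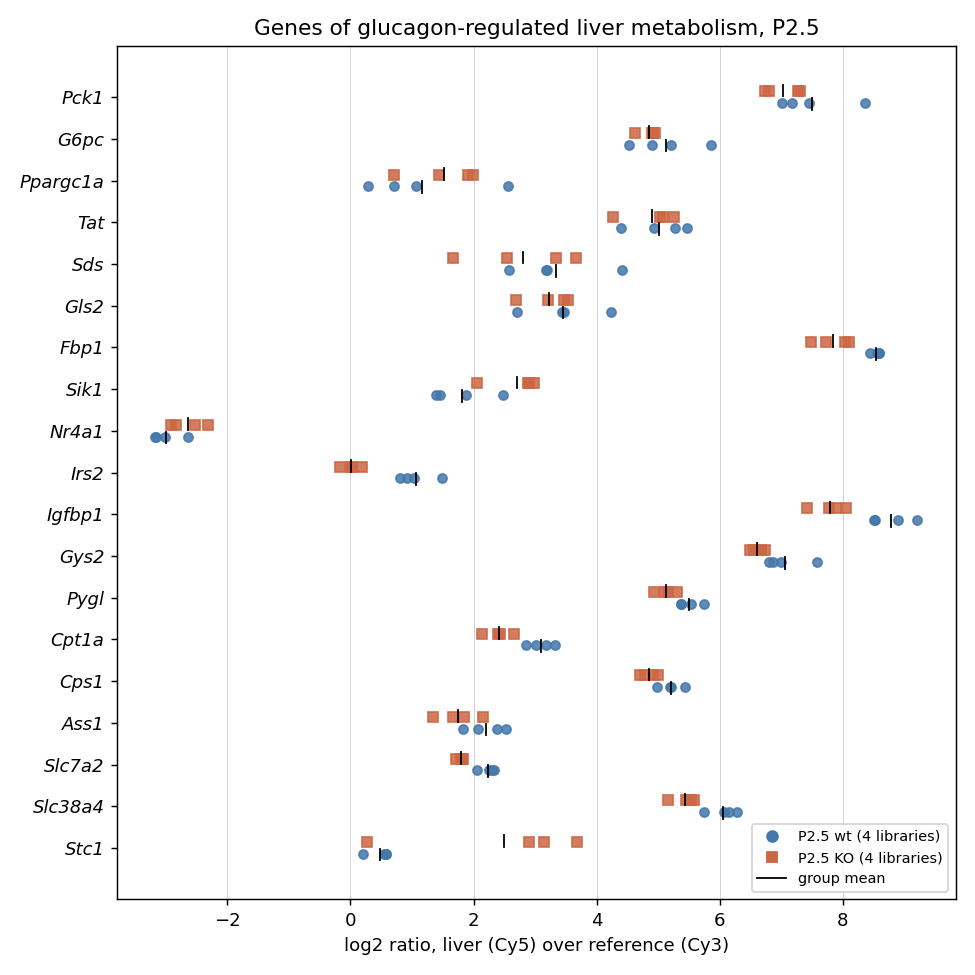
Log2 ratio of liver over reference for genes of gluconeogenesis, glycogen, fatty acid oxidation, urea formation and amino acid uptake and for cAMP targets, with 1 circle per wt library, 1 square per KO library and ticks at the group means. Groups overlap for Pck1, G6pc, Ppargc1a, Tat, Sds and Gls2, while Fbp1, Irs2, Igfbp1 and Cpt1a are separate, and KO replicate 3 lies with the wt libraries for Stc1 at 0.28.

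Gluconeogenesis had 5 genes lower and 1 higher of 30 tested (16.7% lower), with a median of -0.15. Fbp1, for fructose-1,6-bisphosphatase, read 8.44, 8.59, 8.59 and 8.55 in wt and 8.10, 7.73, 7.48 and 8.03 in KO and fell by 0.71 ± 0.12 (SE, adjusted p = 0.000355). In Cy5 alone its difference was -0.28 and did not pass (adjusted p = 0.159). Onecut1, for the hepatic factor HNF-6, fell by 0.79 ± 0.12 (SE, adjusted p = 9.32e-05), and was -3.44 in Feature Extraction's own log ratios. Its probe was well above background on 4 wt arrays and 0 KO arrays, so the size of this fall is not well set. Without wt replicate 1, 3 genes of this list were lower, without wt replicate 3 there were 8 lower and 3 higher, and in Cy5 alone 8 lower and 0 higher. The aminotransferase gene Tat differed by -0.11 ± 0.40 (SE, adjusted p = 0.867).

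In glycogen metabolism 5 of 27 genes were lower and 1 higher. Phka2, the regulatory subunit of liver phosphorylase kinase, fell by 0.49 ± 0.10 (SE, adjusted p = 0.00137), and Gsk3b, a kinase that inactivates glycogen synthase, by 0.60 ± 0.14 (SE, adjusted p = 0.00469). The liver glycogen synthase gene Gys2 read 6.87, 7.001, 7.58 and 6.80 in wt and 6.73, 6.66, 6.55 and 6.49 in KO. It changed by -0.45 ± 0.13 (SE, adjusted p = 0.0176), a call lost without wt replicate 3 (adjusted p = 0.0573), without which 3 genes of this list were lower, and in Cy5 alone (-0.14, adjusted p = 0.687). The liver phosphorylase gene Pygl was -0.38 (adjusted p = 0.0706) and the branching enzyme gene Gbe1 -0.03 (adjusted p = 0.917), although Gbe1 was higher in KO at E18.5 by 0.89 and at P7.5 by 0.75. The difference of Gbe1 between ages passed (-0.85, adjusted p = 0.00419).

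Of 75 tested genes of amino acid breakdown 15 fell (20%) and 0 rose, with a median of -0.14 and of -0.22 in Cy5 alone. Without wt replicate 3, 4 were higher and 12 lower, and in Cy5 alone 5 were higher and 16 lower, with 9 of the 15 falls passing there. Those that fell included genes of branched-chain amino acid use, with Hibadh at -0.49, Aldh6a1 at -0.63 and Bcat2 at -0.44, although Bcat2 was -0.08 in Cy5 alone (adjusted p = 0.522) with a Cy3 difference of 0.35. Dld, the shared dehydrogenase subunit of keto acid complexes, fell by 0.76 ± 0.20 (SE, adjusted p = 0.00824), and Amt of the glycine cleavage system by 0.39. Sds, the serine dehydratase that glucagon induces, read 3.17, 2.57, 4.41 and 3.19 in wt and 3.66, 3.34, 2.54 and 1.66 in KO. Gls2, the liver glutaminase, read 3.46, 2.71, 4.24 and 3.43 in wt and 3.53, 3.46, 3.21 and 2.68 in KO. Both sets of values overlapped widely, and neither gene passed (adjusted p = 0.464 and 0.649), while at P7.5 both passed, with differences of -2.07 and -1.45 (adjusted p = 0.00304 and 0.00224).

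In the urea cycle and ammonia handling 4 of 15 genes fell (26.7%), but 1 without wt replicate 4 and 2 without wt replicate 1 or KO replicate 3. Glud1, for glutamate dehydrogenase, fell by 0.49 ± 0.12 (SE, adjusted p = 0.00648), with -0.26 in Cy5 alone (adjusted p = 0.169). Cps1, the carbamoyl phosphate synthase of the first step, was -0.35 (adjusted p = 0.287), Ass1 -0.45 (adjusted p = 0.3) and the glutamine synthetase gene Glul -0.04 (adjusted p = 0.908). Of 24 amino acid transporter genes 7 fell (29.2%) and 1 rose, and 4 fell without wt replicate 1. The system A transporter gene Slc38a2 read -1.03, -1.02, -1.17 and -1.05 in wt and -1.79, -1.72, -1.98 and -1.89 in KO and fell by 0.78 ± 0.12 (SE, adjusted p = 0.00011). Its relative Slc38a4 fell by 0.62 ± 0.15 (SE, adjusted p = 0.00528), with -0.40 in Cy5 alone (adjusted p = 0.11), and the taurine transporter gene Slc6a6 by 0.64 ± 0.19 (SE, adjusted p = 0.0176). The large neutral amino acid transporter gene Slc7a5 rose by 0.58 ± 0.11 (SE, adjusted p = 0.00111).

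Fatty acid oxidation and ketogenesis had 13 of 47 genes lower (27.7%) and 3 higher, with a median of -0.21. In Cy5 alone 4 were higher and 7 lower, and 4 of the 13 falls passed there. Cpt1a, for the carnitine palmitoyltransferase that lets fatty acids into mitochondria, read 3.18, 2.84, 3.32 and 3.01 in wt and 2.43, 2.39, 2.14 and 2.66 in KO and fell by 0.68 ± 0.19 (SE, adjusted p = 0.0119), with -0.48 in Cy5 alone (adjusted p = 0.106). Etfa, for an electron transfer flavoprotein, fell by 0.55, the thiolase gene Acaa2 by 0.56 and the hydratase gene Echs1 by 0.44. In Cy5 alone these 3 were -0.23, -0.16 and -0.14 and did not pass (adjusted p = 0.168, 0.331 and 0.206), and their Cy3 differences were 0.25, 0.30 and 0.28. The peroxisomal thiolase gene Acaa1b rose by 0.72 ± 0.15 (SE, adjusted p = 0.0017) and the acyl-CoA thioesterase gene Acot4 by 0.58. Fgf21, the fasting hormone gene, spread from -0.31 to 3.48 in wt (adjusted p = 0.684).

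In the lists of lipid synthesis and bile acids more genes fell than rose, against 12.3% lower and 11.8% higher among all genes. Of 37 genes of fatty acid and triglyceride synthesis 5 fell (13.5%), near the share of all genes. They were led by Mlxipl, for the glucose-sensing factor ChREBP, at -0.87 ± 0.16 (SE, adjusted p = 0.000585), and Apob, for the protein core of liver lipoproteins, at -0.73 ± 0.14 (SE, adjusted p = 0.000701). In this list 3 genes fell without wt replicate 2 or 4 or without KO replicate 1, 2 or 3. Of 24 cholesterol genes 5 fell (20.8%), but 1 without wt replicate 2 or 4, 2 without KO replicate 3 and 3 without KO replicate 1 or 2. In the bile acid list 6 of 27 fell (22.2%) and 1 rose. Slc10a1, for the bile acid uptake carrier NTCP, read -0.71, -0.17, 0.18 and -0.38 in wt and -1.68, -1.28, -1.81 and -0.998 in KO and fell by 1.17 ± 0.22 (SE, adjusted p = 0.000795). The sterol hydroxylase gene Cyp27a1 fell by 0.77 ± 0.19 (SE, adjusted p = 0.00633), the uptake carrier gene Slco1b2 by 0.71 ± 0.14 (SE, adjusted p = 0.0013) and Klb, the coreceptor for FGF15 and FGF21, by 0.78 ± 0.19 (SE, adjusted p = 0.00594). The call of Klb was lost in Cy5 alone (-0.54, adjusted p = 0.0779). The reductase gene Akr1d1 rose by 0.73 ± 0.15 (SE, adjusted p = 0.00147), but was 0.02 in Feature Extraction's own log ratios.

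Proteins that hepatocytes secrete into plasma gave the largest number of falls of any list. Of 88 genes 35 fell (39.8%) and 0 rose, with a median of -0.31. Without KO replicate 3, 27 fell. Without wt replicate 3, 5 were higher and 32 lower, and in Cy5 alone 2 were higher and 28 lower. Afp, the albumin of the fetus, read 10.07, 10.39, 10.47 and 10.03 in wt and 9.30, 9.18, 8.79 and 9.34 in KO, a difference of -1.09 ± 0.14 (SE, adjusted p = 1.74e-05), but -0.03 in Cy5 alone (adjusted p = 0.673). Fgl1, a hepatocyte-derived fibrinogen-like protein, fell by 1.05 ± 0.15 (SE, adjusted p = 9.07e-05), Apoh by 0.88 ± 0.13 (SE, adjusted p = 9.11e-05) and the retinol carrier gene Rbp4 by 0.74 ± 0.11 (SE, adjusted p = 9.32e-05), yet in Cy5 alone these 3 were -0.15, 0.09 and 0.18 and did not pass (adjusted p = 0.541, 0.628 and 0.121). Of the 35 falls 12 passed in Cy5 alone too. The list's median was -0.32 in Cy5 alone. Among the 100 genes brightest in Cy5, 48 passed as lower and 3 as higher, with a median of -0.27 in the log ratio, 0.07 in Cy5 alone and 0.12 in Cy3 alone.

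**Figure D3:**
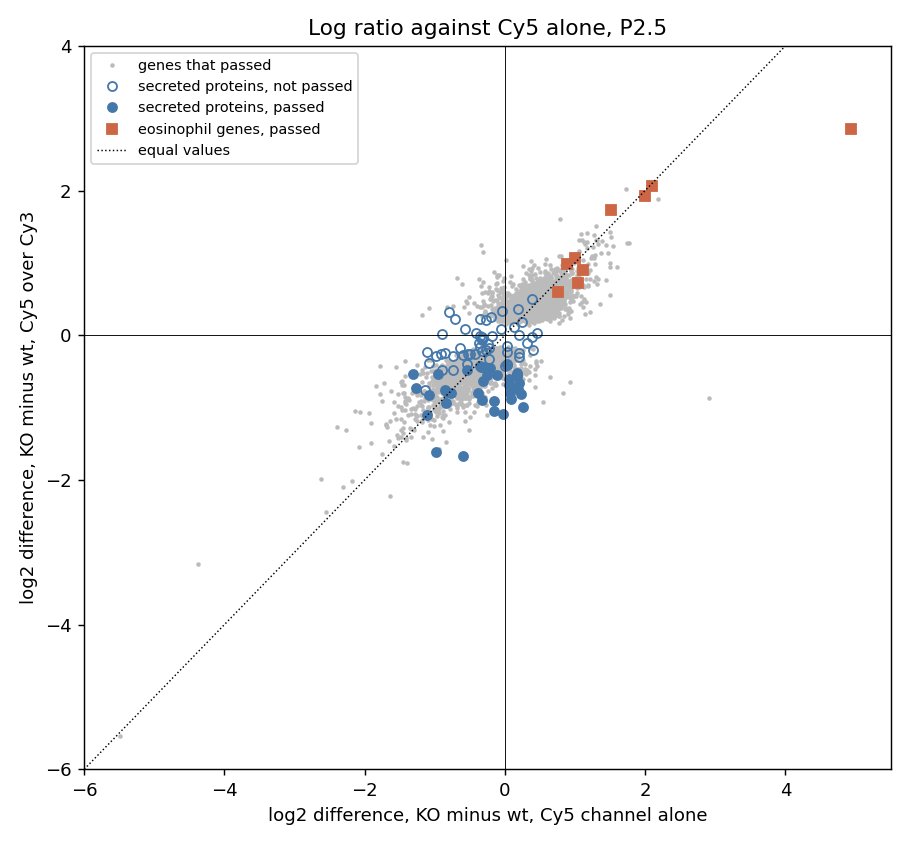
Difference KO minus wt at P2.5 in the log ratio (vertical) against the difference in Cy5 alone (horizontal), both log2, for the genes that passed (grey), the 88 secreted protein genes (filled where passed) and 9 eosinophil genes (squares). Many secreted protein genes that passed lie below the dotted line of equal values near 0 on the horizontal axis, while the eosinophil genes lie at 0.76 or more on it.

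Of 32 hepatocyte marker genes 13 fell (40.6%) and 1 rose, with a median of -0.38. In Cy5 alone the median was -0.19, 8 genes were lower and 1 higher, and 5 of the 13 falls passed. Without wt replicate 3, 3 were higher and 10 lower. The list had a summed Cy5 signal of 3116638 to 3255224 units in wt against 2908382 to 3047610 in KO. Alb, for albumin, changed by -0.90 ± 0.19 (SE, adjusted p = 0.00186), and by -0.16 in Cy5 alone (adjusted p = 0.311). Of 58 drug metabolizing enzyme genes 19 fell (32.8%) and 1 rose, and 15 of these falls passed in Cy5 alone, where 3 were higher and 20 lower. Without wt replicate 3, 6 were higher, and 4 without KO replicate 4. They included the monooxygenase gene Fmo1 at -0.90 ± 0.18 (SE, adjusted p = 0.00133) and Cyp2c23, for an arachidonic acid epoxygenase, at -0.86 ± 0.16 (SE, adjusted p = 0.000539). Genes expressed around the central vein of the lobule had 6 of 19 lower (31.6%), among them Tbx3, a Wnt target, at -0.74 ± 0.15 (SE, adjusted p = 0.00158) and Cyp2e1 at -0.65 ± 0.16 (SE, adjusted p = 0.00611), but 3 were lower without wt replicate 1 or 2 or KO replicate 2. Of 20 periportal genes 0 passed in limma, 4 had an unadjusted p under 0.05 and 5 passed in Cy5 alone, and their median was -0.23.

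Of 29 fetal liver genes 9 fell (31%) and 1 rose, and 5 fell without wt replicate 2. The imprinted growth gene Peg3 read 1.52, 1.31, 2.19 and 1.76 in wt and 0.38, 0.57, 0.40 and 0.78 in KO and fell by 1.16 ± 0.20 (SE, adjusted p = 0.000315). The imprinted factor gene Plagl1 read 3.28, 2.65, 1.99 and 2.82 in wt and 0.30, 0.42, 0.47 and 2.56 in KO, so that KO replicate 4 lay with the wt libraries, and it changed by -1.75 ± 0.46 (SE, adjusted p = 0.00937). The 4 probes of Plagl1 did not agree, at -1.75, -1.74, -0.21 and 0.07. Hmga2, a chromatin factor of fetal growth, rose by 0.78 ± 0.09 (SE, adjusted p = 8.86e-06), though by 0.25 in Cy5 alone (adjusted p = 0.0692). Igf2 changed by -1.27 ± 0.18 (SE, adjusted p = 7.26e-05), and by 0.05 in Feature Extraction's own log ratios.

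Insulin and IGF signalling had 8 of 36 genes lower (22.2%) and 2 higher, with 5 lower without wt replicate 1 or KO replicate 3 and 4 higher without wt replicate 3. Insr, the insulin receptor gene, read 1.27, 1.32, 1.90 and 1.67 in wt and 0.50, 0.61, 0.09 and 0.89 in KO and fell by 1.02 ± 0.20 (SE, adjusted p = 0.00105), with 2 other probes at -0.48 and -0.40. In this list 18 genes had a lower difference at P2.5 than at the other ages and 0 a higher one, against 17.1% and 14.5% of all genes. The clock list held 3 lower and 2 higher of 20, with 0 higher without wt replicate 1 and 4 without wt replicate 3. The nuclear receptor gene Rora fell by 0.89 ± 0.19 (SE, adjusted p = 0.00226), Clock by 0.68 ± 0.12 (SE, adjusted p = 0.000509) and the factor gene Hlf by 0.71 ± 0.16 (SE, adjusted p = 0.00354). Genes of the hypoxia response had 4 of 21 higher (19%) and 0 lower, with P4ha1, a collagen prolyl hydroxylase gene, at 0.51 ± 0.10 (SE, adjusted p = 0.00105), but 2 were higher without wt replicate 2 or KO replicate 1, and 7 in Cy5 alone. Stc1, for the secreted hormone stanniocalcin, read 0.58, 0.54, 0.57 and 0.21 in wt and 3.14, 2.90, 0.28 and 3.67 in KO. It rose by 2.02 ± 0.52 (SE, adjusted p = 0.00798), and KO replicate 3 lay within the wt range while the other KO libraries were above 2.8.

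Of 58 cell cycle genes 15 fell (25.9%) and 1 rose, but 8 were lower without KO replicate 3 and 9 without KO replicate 1. In Cy5 alone 7 were higher and 11 lower, 7 of the 15 falls passed, and the median was -0.06 against -0.17 in the log ratio. The mitotic ubiquitin enzyme gene Ube2c fell by 0.56 ± 0.10 (SE, adjusted p = 0.000755), the mitotic kinase gene Plk1 by 0.50 ± 0.12 (SE, adjusted p = 0.00655) and Ect2, a regulator of cytokinesis, by 0.68 ± 0.16 (SE, adjusted p = 0.00489). In Cy5 alone Ube2c was -0.10 and Ect2 -0.28, and neither passed (adjusted p = 0.532 and 0.189), with Cy3 differences of 0.37 and 0.34. Of 68 respiratory chain genes 19 fell (27.9%) and 3 rose, with 11 lower without KO replicate 3, 12 without wt replicate 4, and 0 to 7 higher with 1 library left out (fewest without KO replicate 1 or 2, 1 without KO replicate 3 or wt replicate 2, and most without KO replicate 4). The balance turned in Cy5 alone, where 10 were higher and 5 lower, 5 of the 19 falls passed, and the median was 0.04 against -0.12 in the log ratio. The complex I gene Ndufa10 fell by 0.75 ± 0.14 (SE, adjusted p = 0.000937) and Ndufs1 by 0.55 ± 0.12 (SE, adjusted p = 0.0022). Of 49 ribosomal protein genes 10 rose (20.4%) and 5 fell, or 8 without wt replicate 3 or KO replicate 4, and 17 were higher and 2 lower in Cy5 alone, with Rps3 at 0.44 ± 0.07 (SE, adjusted p = 0.000252) and Rps29 at 0.42 ± 0.06 (SE, adjusted p = 9.95e-05). Among genes of protein folding in the endoplasmic reticulum, the disulfide isomerase gene Pdia3 fell by 0.81 ± 0.15 (SE, adjusted p = 0.000816), the chaperone gene Hsp90b1 by 0.78 ± 0.20 (SE, adjusted p = 0.00798), with -0.44 in Cy5 alone (adjusted p = 0.0655), and Syvn1, for a ubiquitin ligase that clears misfolded proteins, by 0.62 ± 0.13 (SE, adjusted p = 0.00223), in a list with 6 lower and 2 higher of 31.

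Marker genes of eosinophils and mast cells held the largest share of rises. The gene lists were chosen with earlier results of these data known, so this share is a description and not a test. Of 24 tested 9 were higher (37.5% against 11.8% of all genes) and 0 lower, with the same count of 9 higher when any 1 library was left out. The list's summed Cy5 signal was 14470 to 18361 units in wt and 23961 to 45991 in KO, and the groups did not overlap. Prg2, for major basic protein, read 0.86, 1.62, 0.86 and 0.35 in wt and 3.97, 3.83, 3.69 and 3.62 in KO. Ear10 rose by 1.07 ± 0.25 (SE, adjusted p = 0.00451) and Cebpe, the granulocyte factor that drives granule genes, by 0.98 ± 0.25 (SE, adjusted p = 0.00664). The interleukin 33 receptor gene Il1rl1 rose by 0.59 ± 0.12 (SE, adjusted p = 0.00123), and the ribonuclease genes Rnase2a and Ear1, named after their values were seen, by 0.73 and 0.90, but these 2 were -0.14 and -0.52 in Feature Extraction's own log ratios. The eosinophil genes Siglecf, Ccr3 and Il5ra did not pass (0.10, 0.09 and 0.30, adjusted p = 0.71, 0.61 and 0.19). Neither did the mast cell genes Cpa3, Cma1, Mcpt4 and Tpsb2, at -0.34, -0.46, 0.05 and -0.02.

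In Prg2, Ear6, Epx and Prg3 the wt group of this age was the lowest of the 6 groups. The mean Prg2 ratio was 0.92 ± 0.53 (SD, n = 4) in P2.5 wt and between 3.60 and 3.84 in the other 5 groups. In wt it changed by -2.91 from E18.5 to P2.5 and by 2.92 from P2.5 to P7.5. For Ear6 these changes were -3.28 and 1.94, for Epx -2.10 and 1.32, and for Prg3 -2.16 and 1.03. KO at P2.5 differed from the mean of the other KO ages by 0.13, 0.32 and 0.49 (adjusted p = 0.554, 0.428 and 0.209) and in Prg3 by 0.76 (adjusted p = 0.0245). At E18.5 Ear6, Epx and Prg3 were lower in KO than in wt, by 1.55, 0.97 and 1.19 (adjusted p = 0.00159, 0.0336 and 0.00419). Prg2 did not pass there (-0.24, adjusted p = 0.35), and at P7.5 none of these genes passed. The P2.5 wt arrays shared slides with wt arrays of other ages, so the wt change can be read within a slide. On the slide with all 3 ages and wt replicate 2, Prg2 read 3.64 at E18.5, 1.62 at P2.5 and 3.80 at P7.5, and on that with wt replicate 3 it read 4.14, 0.86 and 4.02. The Cy3 signal of the Prg2 spots was 6.21 to 6.45 on P2.5 wt arrays and 7.31 to 10.07 on all others, so that it moved with Cy5, and the part of this in the ratio was not tested.

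**Figure D4:**
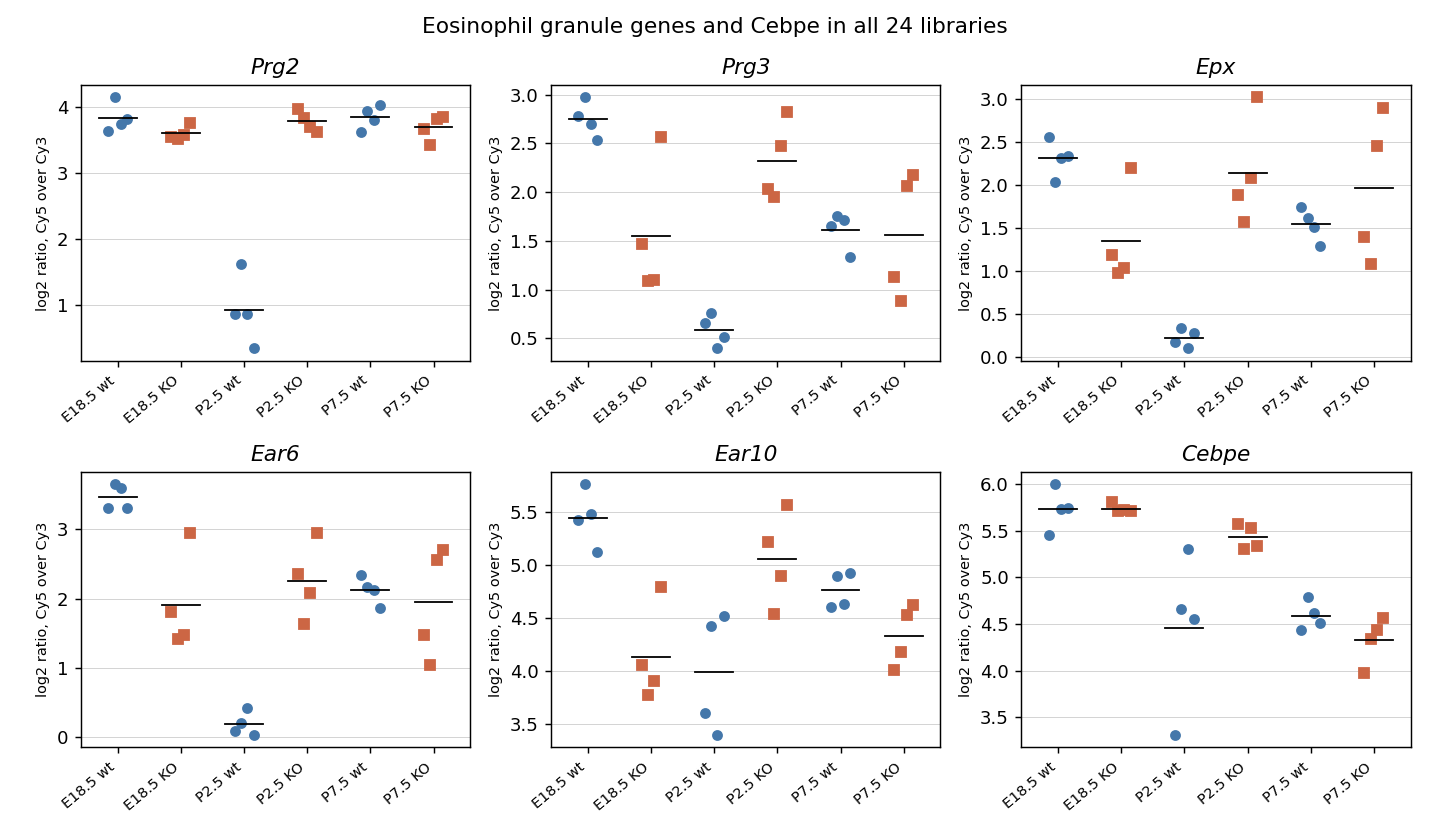
Log2 ratio of liver over reference for 6 eosinophil-related genes in all 24 libraries, by age and genotype, with 1 symbol per library and a bar at each mean. P2.5 wt is the lowest group for Prg2, Prg3, Epx and Ear6, with all 4 of its libraries below every other library for each of them.

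Other blood lineages were less uniform. Of 21 progenitor genes 6 rose (28.6%) and 1 fell, and their summed Cy5 signal was 17541 to 21909 units in wt and 24192 to 26210 in KO without overlap. Their median difference was 0.03 against -0.01 over all genes. The fall was that of Hlf (-0.71), and the rises included Cebpe, which is also in the eosinophil list. Kit and Myb did not pass (-0.43 and 0.43, adjusted p = 0.16 and 0.10). Lmo2, an early blood factor gene, rose by 0.52 ± 0.11 (SE, adjusted p = 0.00235), Gfi1b of the erythroid and platelet line by 0.67 ± 0.18 (SE, adjusted p = 0.00909) and Cd34 by 0.43 ± 0.11 (SE, adjusted p = 0.00961). Cd34 was also higher in KO at E18.5 (0.42) and P7.5 (0.71). In the B lineage 4 of 19 rose (21.1%) and 2 fell, with Vpreb3 first and Ebf1 at 0.60 ± 0.12 (SE, adjusted p = 0.00107), which was -0.18 in Cy5 alone (adjusted p = 0.321), and 2 rose without wt replicate 2 or KO replicate 3 or 4. Neutrophil genes gave 3 higher and 3 lower of 26, but 7 lower without wt replicate 1, 7 higher without wt replicate 3 and 0 or 1 higher without each of the other libraries, with summed Cy5 signals of 170859 to 529557 units in wt, the lowest in replicate 1, and 436728 to 535630 in KO. The rises were Ms4a3, S100a8 and Mmp8 (0.82, 0.77 and 0.72, adjusted p = 0.0495, 0.0301 and 0.0376), with overlapping groups. In Cy5 alone S100a8 and Mmp8 did not pass (0.52 and 0.50, adjusted p = 0.0792 and 0.157). Among the falls, the G-CSF receptor gene Csf3r fell by 0.88 ± 0.21 (SE, adjusted p = 0.00445) and the chemokine receptor gene Cxcr2 by 0.66 ± 0.14 (SE, adjusted p = 0.00227). The neutrophil genes Elane, Mpo and Ngp did not pass (-0.07, 0.22 and 0.23, adjusted p = 0.766, 0.589 and 0.396). Of 36 erythroid genes 2 rose and 2 fell, below the background in both directions, though 6 fell without KO replicate 4. Of 20 platelet genes 7 fell (35%) and 2 rose, but 3 fell without wt replicate 4 and 4 without wt replicate 2 or 3 or KO replicate 1, 2 or 3. The falls included Vwf, for von Willebrand factor of platelets and endothelium, at -1.11 ± 0.16 (SE, adjusted p = 5.27e-05) and the integrin gene Itga2b at -0.99 ± 0.22 (SE, adjusted p = 0.00299). The rises were Clec1b at 0.79 ± 0.20 (SE, adjusted p = 0.00682) and Fli1 at 0.35 ± 0.08 (SE, adjusted p = 0.00332). The platelet genes Pf4 and Ppbp did not pass (0.08 and 0.06, adjusted p = 0.797 and 0.874). Kupffer cell and monocyte genes had 1 higher and 3 lower of 26, with 1 lower without wt replicate 2 or KO replicate 3 and 0 in Cy5 alone, and T and NK cell genes 2 and 0 of 23.

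Endothelial genes fell in 7 of 32 cases (21.9%) and rose in 2, and 4 fell without wt replicate 2 or KO replicate 3. After Ptprb and Vwf these included Kdr, for the VEGF receptor, at -0.54 ± 0.15 (SE, adjusted p = 0.011), or -0.41 in Cy5 alone (adjusted p = 0.157), and the endothelial factor gene Erg at -0.55 ± 0.10 (SE, adjusted p = 0.0004), while Egfl7 rose by 0.49 ± 0.12 (SE, adjusted p = 0.00618). The list's summed Cy5 signal overlapped between groups, at 65794 to 72418 units in wt and 60012 to 74615 in KO. Of 39 stellate cell and fibroblast genes 4 rose, with Fbln1, for fibulin, at 0.52 ± 0.09 (SE, adjusted p = 0.000315) and the protease inhibitor gene Timp1 at 0.46 ± 0.10 (SE, adjusted p = 0.00354), and 5 fell, with 2 higher without wt replicate 4 or KO replicate 3, and 2 to 8 lower with 1 library left out, fewest without KO replicate 1 or 3, 3 without KO replicate 2 or wt replicate 1, 2 or 4, and most without KO replicate 4. In Cy5 alone 2 were higher and 9 lower. Of 21 bile duct genes 3 rose and 3 fell. The falls were Onecut1 (-0.79, with KO not clear of background), Ggt1 (-0.72) and Pkhd1 (-0.63). The bile duct keratin genes Krt19 and Krt7 did not pass (-0.04 and -0.155, adjusted p = 0.884 and 0.347). Epcam rose by 0.50 ± 0.17 (SE, adjusted p = 0.0385), with 0.41 in Cy5 alone (adjusted p = 0.0713). The secretin receptor gene Sctr, which marks bile duct cells, read 1.21, 0.53, 0.74 and 1.26 in wt and 2.27, 1.89, 1.93 and 2.56 in KO and rose by 1.22 ± 0.20 (SE, adjusted p = 0.000251), and the tight junction gene Cldn7 rose by 0.72 ± 0.13 (SE, adjusted p = 0.000633).

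**Figure D5:**
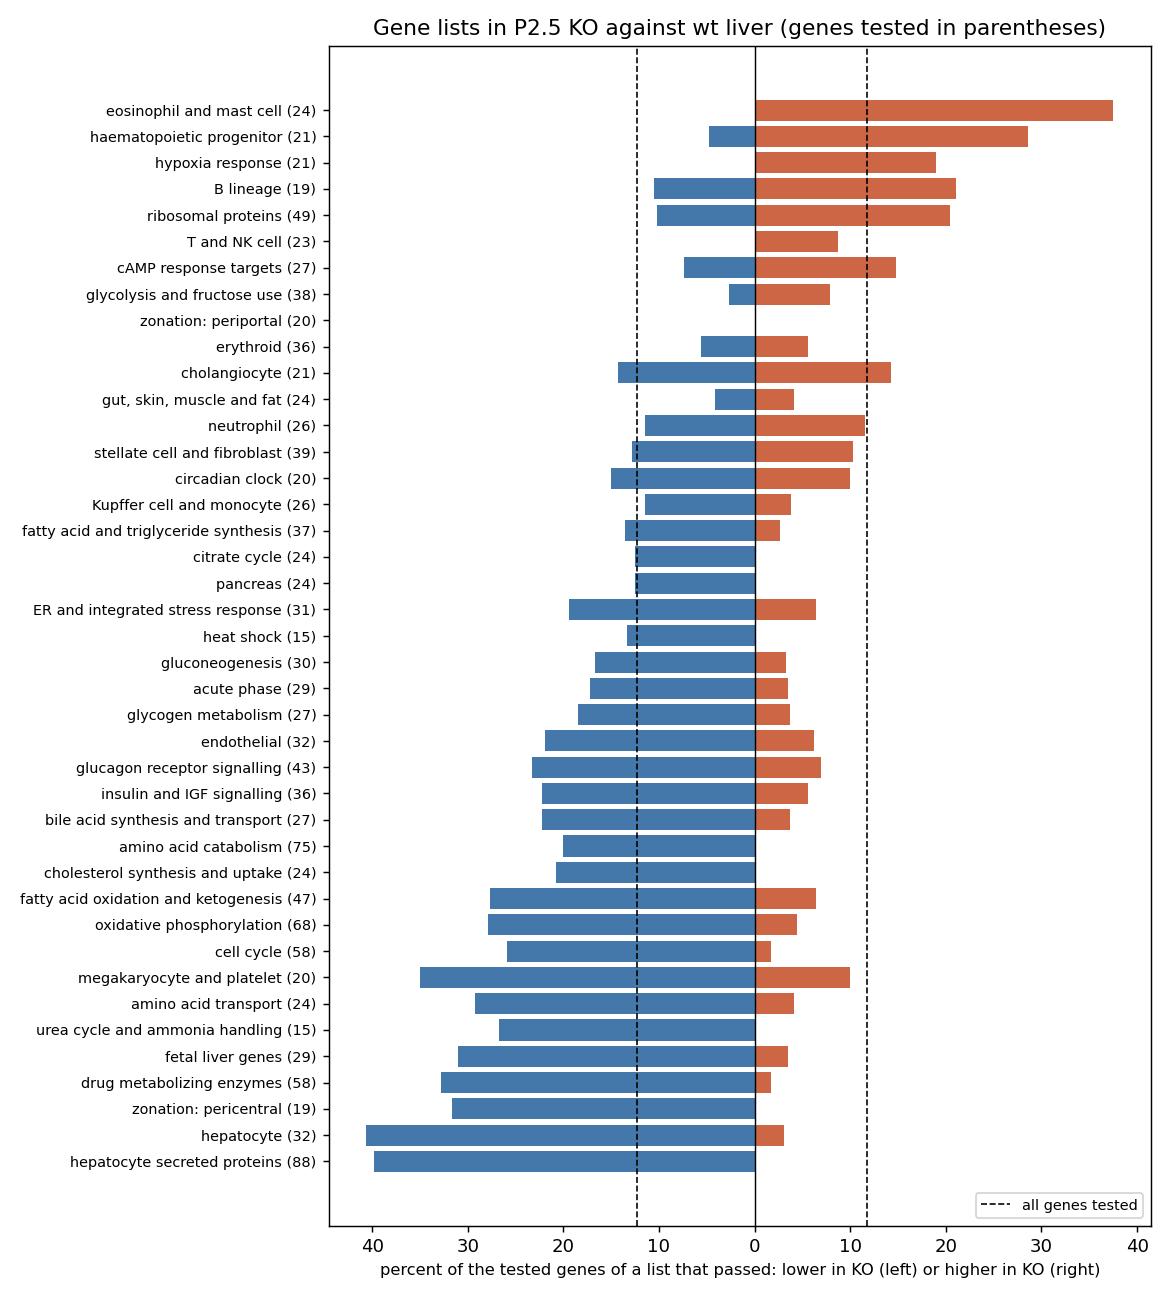
Percent of the tested genes that passed, for each list with at least 15 tested genes, as lower (left, blue) or higher (right, orange) in KO, with the number tested in parentheses and dashed lines at the shares of all genes (12.3% lower and 11.8% higher). Eosinophil, progenitor and hypoxia lists lie at the top, and hepatocyte, secreted protein, pericentral and drug enzyme lists at the bottom.

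Whether the difference at P2.5 was particular to this age was tested against the mean difference at E18.5 and P7.5. By this test 5463 genes passed (31.6%), 2505 with a higher and 2958 with a lower difference at P2.5. Of the 4166 genes called at P2.5, 2229 (53.5%) passed this test with the same sign, and 635 (15.2%) passed in 1 direction at all 3 ages. The largest positive departures were in Prg2 (3.05), Ear6 (2.93), the homeobox gene Obox1 (2.44), the U2 small nuclear RNA gene Rnu2-10 (2.38) and Prg3 (2.36). Obox1 read 1.59, 0.96, 0.41 and 0.96 in wt and 1.92, 1.69, 1.85 and 2.65 in KO, and its difference was -2.56 at E18.5 and -0.22 at P7.5, but its call at P2.5 was lost without wt replicate 3 or KO replicate 4 (at most adjusted p = 0.0687). The KO-wt difference of Rnu2-10 at P2.5 itself did not pass (adjusted p = 0.0703).

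The largest negative departure was in Fn1. It departed by -3.13 ± 0.39 (SE, adjusted p = 2.51e-05), the basement membrane gene Nid1 by -2.77, Plagl1 by -2.65, Atp2b2 by -2.60 and the Golgi glycoprotein gene Glg1 by -2.42. Fn1 was higher in KO at E18.5 and P7.5, by 1.51 and 1.52, and lower at P2.5. Nid1 read 0.91, 0.72, 0.19 and 0.92 in wt and -1.14, -0.61, -1.31 and 0.10 in KO at P2.5. In wt both genes were higher at P2.5 than at the other ages, by 1.53 and 1.22, and in KO they were lower, with differences of -1.60 and -1.54. Within each of the 4 slides that carried a P2.5 wt array, Fn1 was 1.14 to 2.09 and Nid1 1.13 to 1.44 above the wt arrays of other ages on the same slide. The KO change with age cannot be read in this way, since slides with P2.5 KO arrays held no other age. Of the 2229 genes, 737 (33.1%) had a wt level at P2.5 that passed against the other wt ages while KO did not, 759 (34.1%) the reverse, and 569 (25.5%) passed in both genotypes.

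Differences also ran along the length of the gene locus. In the 10% of genes with the shortest locus the median difference was 0.03, with 12.8% higher and 7.3% lower, and in the 10% with the longest it was -0.05, with 9.61% higher and 17% lower. At E18.5 these sets had medians of -0.08 and 0.11, and at P7.5 of -0.11 and 0.12. In Cy5 alone the P2.5 medians were 0.12 and -0.07. The 12 largest falls had a median locus of 77.2 kb and the 12 largest rises of 8.71 kb, against 19.6 kb over all genes tested. The part of locus length in any result above was not tested.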

How the data were processed

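Liver RNA of 24 libraries was labelled with Cy5 and hybridised with a pooled reference RNA in Cy3 to 2-colour Agilent arrays, per the labels. The authors deposited scanner output with Cy5 and Cy3 intensity per spot and a log10 ratio, and a table of log2 ratios, which matched the scanner values in scale and direction. From the median intensity values, flagged spots were left out, background was corrected by normexp (offset 50) and dyes were balanced by loess in limma 3.58.1. Of 20144 genes, each read by its brightest Cy5 probe, 17266 were tested, those whose Cy5 signal cleared background on 4 or more of 24 arrays. One model with 6 group means was fitted with lmFit and eBayes, and Benjamini-Hochberg adjusted p under 0.05 was the threshold. Tested on simulated data for the P2.5 comparison, it found 47 of 50 genes given a log2 change of 1 and 31 of 50 given 0.5. The members and gene lists were chosen with earlier results of these data known.

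Genes were named by a rule: the 12 largest rises and 12 largest falls that passed with separate groups, a probe well above background on at least 3 of 4 arrays of the higher group and a Cy3 difference under 1/3 of the log2 difference, the 3 largest each way failing only that, 29 genes of glucagon-regulated metabolism, up to 6 per list with the lowest adjusted p, and the 5 largest differences between ages each way. Clone, predicted and sex linked names were skipped. Some genes that the rule picks are not reported here. Of 39429 probes 26581 had 1 gene symbol and 12848 none. A gene with several probes was read by 1 of them. A fit dropped missing values, which 46 genes had at P2.5. P19 and 3 month livers were not analysed here. The strain, allele and sex are not given in the sources used here. Replicate numbers did not pair the libraries (correlations of deviations -0.169, -0.305, -0.158 and 0.026).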

Additional observations from a re-analysis of the deposited data

Results flagged for a closer look

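The following values stood apart. Among 273 groups of 4 libraries, 10 held a library far from the other 3 by Dixon's criterion, which chance gives in about 1 group of 20. In wt these were Acaa2 in replicate 2 (4.87), Kdr in replicate 3 (1.61), Klf15 in replicate 3 (5.33), Ndufaf8 in replicate 1 (0.66) and Stc1 in replicate 4 (0.21). In KO they were Alyref (0.82), Cyp27a1 (0.87), Plagl1 (2.56) and Sik1 (2.05) in replicate 4 and Onecut1 in replicate 1 (0.06).

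The KO-wt difference at P2.5 differed from the mean of those at E18.5 and P7.5, by the test of that difference, in 5463 genes. The largest were Fn1 (-3.13), Prg2 (3.05), Ear6 (2.93), Nid1 (-2.77), Plagl1 (-2.65), Atp2b2 (-2.60), Obox1 (2.44), Glg1 (-2.42), Rnu2-10 (2.38) and Prg3 (2.36). Slide set, scan day, software version and genotype cannot be told apart in these values.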

How the results depend on the processing

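The 4166 genes that passed became 1694 (775 higher and 919 lower) in a fit of the P2.5 arrays alone. Genes changed at least 2-fold numbered 334 in Cy5 alone and 1011 in Feature Extraction's own log ratios. The version of that software differed between wt and KO arrays. With 1 P2.5 library left out, 2912 to 4794 genes passed, 1461 to 2382 higher and 1451 to 2412 lower, 145 to 218 at least 2-fold, the difference between ages passed in 4424 to 6102, and Gcgr was -5.64 to -5.39. With the replicate block 4266 passed. Without P2.5 KO replicate 3 and P7.5 KO replicate 2 together, chosen after seeing the data, 3207 passed. With only P7.5 KO replicate 2 left out, 4267 passed, and the difference between ages passed in 5779. The sign turned in Cy5 alone for Apoh (0.09), Ebf1 (-0.18), Igfbp1 (0.25), Ppargc1a (-0.94) and Rbp4 (0.18), and in Feature Extraction's own log ratios for Ear1 (-0.52), Igf2 (0.05) and Rnase2a (-0.14). The cause was not tested. Of 123 named genes that passed, 0 turned sign with 1 library left out, and 6 lost their call in at least 1 such fit. The neutrophil rises were not in this count. The Cy3 comparison was not run under other settings. Signal over background limits genes near the detection threshold.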
